A study of Mus musculus with 10 samples.

Results

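Prostaglandin synthesis, transport and receptors were followed in OP9 stromal cells through 10 genes chosen by name, with earlier results of these libraries in view, from the 26888 genes of the expression table. They are the cyclooxygenases *Ptgs1* and *Ptgs2*, the prostaglandin E synthase *Ptges*, the prostacyclin synthase *Ptgis*, the prostaglandin transporter *Slco2a1*, the degrading enzyme *Hpgd*, and the prostaglandin E2 receptor genes *Ptger1*, *Ptger2*, *Ptger3* and *Ptger4*. All 10 were found in the table, and 6 of them exceeded 0.5 RPM (reads of a gene scaled to a total of 1e6 on all genes) in at least 1 library, the level required for a test.

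Prostaglandins are lipid signals made on demand from arachidonic acid, which phospholipases A2 release from membranes. Cyclooxygenases turn it into prostaglandin H2, terminal synthases convert that into prostaglandin E2, prostacyclin and related products, and G protein-coupled receptors on the same or neighbouring cells respond. Transporters take the signal up again and 15-hydroxyprostaglandin dehydrogenase inactivates it, and in haematopoietic tissue prostaglandin E2 is known as a regulator of stem cells.

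OP9 is a stromal line from mouse calvaria, labelled as foetal, of strain (C57BL/6xC3H)F2-op/op, a background that lacks functional macrophage colony-stimulating factor, and every library carries that genotype. The study asked how expression in this line differs between reaggregates and flat culture. In 3 libraries the cells had been pelleted and cultured as reaggregates, on nitrocellulose filters of 0.8 µm pores between medium and air, for 48 h without the cytokine IL-3 (interleukin-3), and 3 other reaggregates were kept in the same way with IL-3 at a labelled dose of 200 µg/µl. A further 4 libraries came from flat cultures under medium, of which 2, flat cultures 2 and 4, bear the name of the de Bruijn lab and 2, flat cultures 1 and 3, bear no lab name. No culture time was labelled for the flat cultures, and the origin of the reaggregated cells was not given either. The Methods name 2 groups that had kept the cells for flat culture, and passage numbers were not labelled. The model is a single cell line with no blood cells added. Cells were detached with trypsin before reaggregation, and reaggregates were dissociated with collagenase and dispase before RNA was extracted, a step that the Methods do not give for flat cultures. Culture form, time on the filter and enzymatic dissociation therefore cannot be told apart in the contrast of reaggregates with flat cultures.

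The stromal label was compared with marker genes. Of 10 stromal markers, 9 exceeded 0.5 RPM, with *Col1a2* the most abundant in RPM, and their summed level was between 21016 and 29370 RPM in reaggregates and between 12001 and 20173 RPM in flat cultures. In reaggregates limma called 5 of the 9 up, *Col1a1*, *Col1a2*, *Col3a1*, *Pdgfra* and *Pdgfrb*, and 1 down, *Kitl*, beside 7.32% and 6.53% of all genes. Without flat culture 3 the counts were 5 and 0, and with consecutive reaggregates averaged they were 2 and 0, in settings added after the values were seen. *Thy1*, a marker of many stromal cells, did not exceed 0.359 RPM in any library. *Ptprc*, *Adgre1* and *Cd3e*, which mark blood cells, macrophages and T cells, were at 0 in all 10 libraries, and the summed level of the 10 haematopoietic and macrophage markers measured was between 11.9 and 51.5 RPM, with *Lyz2* the most abundant on average. Of 7 mast cell and megakaryocyte markers, *Itga2b* was the most abundant, between 9.14 and 23.0 RPM in reaggregates and between 0.955 and 11.8 RPM in flat cultures. It was called up (log2 fold change 1.87, limma adjusted p = 0.0185). Its log2 difference was 0.89 against flat cultures 1 and 3, under 2-fold, and 2.85 against the de Bruijn cultures. Of 6 epithelial markers, *Epcam* and *Krt18* were at 0 throughout, *Cdh1* was at 0 in reaggregates and between 0.115 and 0.359 RPM in flat cultures, and the highest value was 0.544 RPM for *Krt14* in flat culture 1.

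Depth was estimated from the commonest value above 0, taken as 1 read. Reads on genes numbered 7.35 to 9.43 M (1e6) for reaggregates, the median being 8.49 M, and 8.26 to 8.70 M for flat cultures, the median being 8.37 M. A gene needed between 0.318 and 0.408 RPM to reach 3 reads, taken as the smallest amount a library can show, and this floor covers counting error only. Libraries did not stand equally far apart. Across 16933 genes, which are not independent of each other, Pearson's r was between 0.994 and 0.995 for reaggregates with consecutive numbers (1 and 2, 3 and 4, 5 and 6), each of which pairs a culture without IL-3 with a culture with it, and between 0.961 and 0.980 for other pairs of reaggregates. Flat cultures of different source reached only between 0.913 and 0.931, against 0.965 and 0.984 within a source. Nothing in the labels says that libraries came from separate cultures, so p-values measure the spread between these libraries, which may be technical.

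The contrast of reaggregates with flat cultures was known when the genes were chosen, so their values in it are a description without a test. *Ptgs1* (ENSMUSG00000047250), the constitutive cyclooxygenase, lies on the plus strand at chr2:36085946-36107792 of NCBI37. Its level in the 6 reaggregates was between 59.7 and 127 RPM with a median of 88.5, while flat cultures 1 and 3 had 218 and 276 RPM and the de Bruijn flat cultures 2 and 4 had 160 and 102 RPM. Flat cultures with no lab named were the highest, and only flat culture 4 fell within the range of the reaggregates. The mean was 91.8 ± 30.3 RPM in reaggregates (SD, n = 6) and 189 ± 74.9 RPM in flat cultures (SD, n = 4). On the scale of log2(RPM + 0.5) the difference, reaggregates minus flat, was -1.01, and it was -1.48 against flat cultures 1 and 3 and -0.54 against the de Bruijn cultures. In bulk RNA, fewer cells that express a gene and less of its RNA in each cell cannot be told apart.

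*Ptgs2* (ENSMUSG00000032487), the inducible cyclooxygenase, lies on the plus strand at chr1:151947254-151955140. The reaggregates ranged from 14.3 to 49.8 RPM with a median of 18.2, and the flat cultures had 35.7 and 74.6 RPM where no lab was named and 27.7 and 54.3 RPM in cells of the de Bruijn lab. Reaggregates 5 and 6, at 49.8 and 48.2 RPM, lay among the flat cultures, whereas the other 4 reaggregates were below every flat culture, so the groups overlapped through 1 consecutive pair. On average reaggregates had 27.4 ± 16.9 RPM (SD, n = 6) against 48.1 ± 20.9 RPM in flat cultures (SD, n = 4), with a log2 difference of -0.90.

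Divided by exon length, *Ptgs1* exceeded *Ptgs2* in every library. *Ptgs2* made up between 13.6% and 26.9% of both cyclooxygenases per kb of exon in reaggregates. The share was 13.3% and 20.2% in flat cultures 1 and 3 and 14.0% and 33.3% in flat cultures 2 and 4, so neither culture form nor source separated the libraries.

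*Ptges* (ENSMUSG00000050737), the microsomal enzyme that makes prostaglandin E2 from prostaglandin H2, lies on the minus strand at chr2:30744991-30785383. It was between 201 and 280 RPM in reaggregates with a median of 228, at 216 and 186 RPM in flat cultures 1 and 3, and at 143 and 146 RPM in the de Bruijn cultures. Reaggregates overlapped with the flat cultures of no named lab and lay above both de Bruijn cultures. Average levels were 237 ± 34.2 RPM (SD, n = 6) against 173 ± 34.9 RPM (SD, n = 4), with a log2 difference of 0.46 that was 0.23 against flat cultures 1 and 3 and 0.70 against the de Bruijn cultures. Its direction was thus opposite to that of both cyclooxygenases. *Ptgis*, the prostacyclin synthase, was at 0 in 4 reaggregates and reached 0.272 and 0.319 RPM in the others. It had 0.23 and 0.479 RPM in flat cultures 1 and 3 and 0 and 0.251 RPM in flat cultures 2 and 4, at most 4 reads in a library, so no difference was detectable at this depth.

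*Slco2a1* (ENSMUSG00000032548) encodes the carrier that takes prostaglandins into cells for degradation and lies on the plus strand at chr9:102910817-102990179. Reaggregates held between 0.513 and 4.29 RPM with a median of 1.80, flat cultures 1 and 3 held 6.65 and 9.95 RPM, and the de Bruijn flat cultures 2 and 4 held 680 and 445 RPM. The levels fell into 3 separate ranges, and no reaggregate reached any flat culture. The mean was 2.11 ± 1.58 RPM in reaggregates (SD, n = 6), 8.30 ± 2.33 RPM in flat cultures with no lab named (SD, n = 2) and 562.5 ± 166 RPM in those of the de Bruijn lab (SD, n = 2). The log2 difference from reaggregates to flat cultures was -4.97 when both sources were pooled, -7.96 against the de Bruijn cultures and -1.97 against the others. Between the flat sources it was 5.99, de Bruijn minus no lab named, which is larger than the difference of the reaggregates from flat cultures 1 and 3. The source of the reaggregated cells was not labelled, so culture form and cell source cannot be told apart for this gene.

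Some markers of fat and smooth muscle cells moved with *Slco2a1* among the flat cultures. Between the flat sources limma called the adipocyte markers *Fabp4* and *Pparg* and the smooth muscle markers *Acta2* and *Tagln* higher in de Bruijn cultures. With *Cidec* and *Plin1* the counts were 4 of 7 and 2 of 4, beside 1.82% of all genes. *Cidec* and *Plin1* exceeded the minimum only in the de Bruijn cultures. Their calls are therefore not used and only their values are given, so the count of 4 is not set against that share. Calls between the flat sources rest on 2 libraries against 2. With any 1 flat culture left out limma called 0 genes between the sources. Between culture forms 3 of 7 adipocyte markers, *Cebpa*, *Fabp4* and *Pparg*, were called down in reaggregates. So was 1 of 4 smooth muscle markers, *Cnn1*, beside 6.53% of all genes. The log2 differences of *Cebpa*, *Fabp4*, *Pparg* and *Cnn1* from flat cultures 1 and 3 were -0.54, -0.45, -0.34 and -0.64, each under 2-fold. Against the de Bruijn cultures they lay between -4.29 for *Fabp4* and -1.64 for *Cnn1*, so the size of these changes came mostly from that source. *Fabp4* was between 19.1 and 44.4 RPM in reaggregates, which overlapped with flat cultures 1 and 3. Of 7 osteoblast markers 1, *Dmp1*, was called up, beside 7.32% of all genes. The 8 adipocyte markers, of which 7 exceeded 0.5 RPM and *Lpl* was the most abundant in RPM, summed to 1388 and 1461 RPM in flat cultures 2 and 4. They summed to 369.6 and 527.8 RPM in flat cultures 1 and 3 and to between 255 and 691 RPM in reaggregates. *Lpl* itself was at 365 and 331 RPM in flat cultures 2 and 4 and at 254 and 358 RPM in flat cultures 1 and 3, whereas *Fabp4* was at 435 and 711 RPM against 31.3 and 47.2 RPM and *Pparg* at 395 and 295 RPM against 49.4 and 58.1 RPM. *Cebpa* was at 188 and 119 RPM in flat cultures 2 and 4 and at 34.9 and 64.3 RPM in flat cultures 1 and 3. *Plin1* was at 1.43 and 1.21 RPM and *Cidec* at 2.98 and 3.16 RPM in flat cultures 2 and 4, and both were at 0 in flat cultures 1 and 3. *Adipoq* did not exceed 0.358 RPM in any flat culture, and *Cfd* was at 0 in all 4. The 5 smooth muscle markers, 4 of them above 0.5 RPM and *Acta2* the most abundant, summed to 2657 and 2749 RPM in flat cultures 2 and 4, to 191 and 367 RPM in flat cultures 1 and 3, and to between 84.9 and 455 RPM in reaggregates. *Myh11*, a marker of mature smooth muscle, did not exceed 0.289 RPM in any library. The 7 osteoblast markers, mostly *Spp1*, summed to 7581 and 13843 RPM in flat cultures 2 and 4, to 5759 and 3361 RPM in flat cultures 1 and 3, and to between 1468 and 5474 RPM in reaggregates. Of the 7, *Alpl* was called lower in de Bruijn cultures and *Sp7* higher, beside 3.87% and 1.82% of all genes. *Sp7* exceeded the minimum only in the de Bruijn cultures, at 0.835 and 0.972 RPM, so its call is not used. The stromal marker *Cxcl12* was at 4560 and 3990 RPM in flat cultures 2 and 4 and at 125 and 662 RPM in flat cultures 1 and 3. It was between 546 and 2300 RPM in reaggregates and was not called between flat sources (limma adjusted p = 0.0610). Of 9 stromal markers 0 were called higher and 1, *Col3a1*, lower in de Bruijn cultures (log2 fold change -4.02, limma adjusted p = 0.0182). *Col3a1* was at 38.8 and 31.5 RPM in flat cultures 2 and 4 and at 345 and 960 RPM in flat cultures 1 and 3. The part of any of these markers in the level of *Slco2a1* was not tested.

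*Hpgd*, which inactivates prostaglandins after uptake, was at 0 in 9 of 10 libraries and at 0.0101 RPM, less than 1 read, in flat culture 4. It was not detectable at this depth, also in the cultures in which the transporter was most abundant.

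*Ptger4* (ENSMUSG00000039942), a receptor that raises cyclic AMP on binding prostaglandin E2, lies on the minus strand at chr15:5156661-5194187. It was between 19.9 and 27.7 RPM in reaggregates with a median of 24.8, at 33.1 and 39.2 RPM in flat cultures 1 and 3 and at 34.7 and 31.0 RPM in flat cultures 2 and 4. Every reaggregate was below every flat culture, and both flat sources had similar levels. Reaggregates averaged 24.1 ± 3.01 RPM (SD, n = 6) against 34.5 ± 3.48 RPM (SD, n = 4) in flat cultures, with a log2 difference of -0.51. Its exons share 82 bases with *Ttc33* and 1015 bases with *Gm15937*, both on the opposite strand. *Ttc33* was between 23.9 and 48.8 RPM, and *Gm15937* did not exceed 0.00965 RPM. Nothing states whether the counting used the strand, so reads on the shared bases cannot be told apart.

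*Ptger1* (ENSMUSG00000019464), whose product signals through calcium, lies on the plus strand at chr8:86190732-86196652. It was between 24.7 and 48.2 RPM in reaggregates with a median of 38.4, at 15.5 and 26.9 RPM in flat cultures 1 and 3 and at 24.3 and 28.9 RPM in flat cultures 2 and 4. Reaggregates 1 to 5 were above all flat cultures, and reaggregate 6 lay among them, so the groups overlapped through 1 library. Reaggregates averaged 37.1 ± 8.64 RPM (SD, n = 6) against 23.9 ± 5.91 RPM (SD, n = 4) in flat cultures, and the log2 difference was 0.63. How far these values of *Ptger1* can be relied on is uncertain, here and wherever its level is given.

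**Figure D1:**
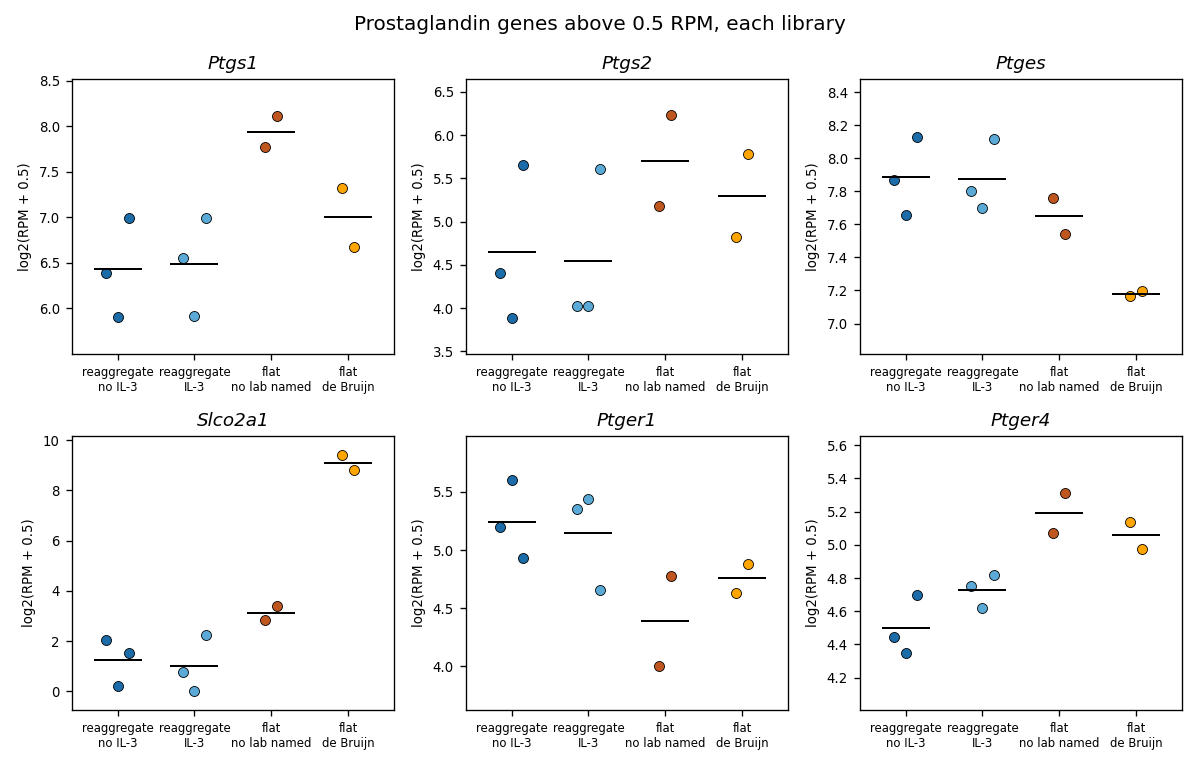
Each point is the log2(RPM + 0.5) of 1 library for the 6 prostaglandin genes above 0.5 RPM, by culture and IL-3 or cell source, with a bar at the group mean and a separate vertical range for each gene. *Slco2a1* spans from 0.513 RPM in a reaggregate to 680 RPM in a de Bruijn flat culture, and *Ptger4* is lower in all reaggregates than in all flat cultures.

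The receptors *Ptger2* and *Ptger3* were hardly represented. *Ptger2*, which also raises cyclic AMP, had 0.115 RPM in flat culture 1 and 0 in the other libraries. *Ptger3*, an inhibitory receptor, was at 0 in 5 libraries and did not exceed 0.359 RPM, in flat culture 3. *Ptger2* stayed below 3 reads in every library, and *Ptger3* came to about 3 reads at most.

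Of the 6 genes above the minimum, limma called 0 up and 2 down, *Ptgs1* and *Slco2a1*, with a 2-fold change or more and an adjusted p no higher than 0.05. With consecutive reaggregates averaged, or with either IL-3 arm alone, 0 of the 6 were called. Over all 16933 genes the same rule called 1239 up (7.32%) and 1106 down (6.53%). Reaggregates were below all flat cultures without overlap for 2 of the 6, *Slco2a1* and *Ptger4*, and above for 0, beside 11.4% and 7.8% of all genes. Between flat sources 1 of the 6 was called higher in de Bruijn cultures, *Slco2a1*, and 0 lower, beside 1.82% and 3.87% of all genes. Without flat culture 3 the number of genes up was 2121, and without flat culture 4 it was 766. The genes were chosen with this contrast known, so these counts stand beside the background and nothing is read from them. The direction of each of the 6 differences was the same in all 25 alternative settings.

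The levels of different genes were compared as RPM per kb of exon. In reaggregates *Ptges* was highest at 60.2 ± 8.70, followed by *Ptgs1* at 23.6 ± 7.81, *Ptger1* at 7.48 ± 1.74, *Ptgs2* at 6.61 ± 4.07, *Ptger4* at 3.63 ± 0.453 and *Slco2a1* at 0.523 ± 0.391 RPM per kb (SD, n = 6). *Ptger1* and *Ptgs2*, and *Ptgs2* and *Ptger4*, did not differ beyond their SDs, and the place of *Ptger1* is uncertain. In flat cultures 1 and 3 *Ptgs1* led at 63.6 ± 10.6 RPM per kb, ahead of *Ptges* at 51.1 ± 5.39 (SD, n = 2), and their SDs overlapped. In the de Bruijn cultures *Slco2a1* was the highest at 139 ± 41.2, above *Ptges* at 36.7 ± 0.539 and *Ptgs1* at 33.7 ± 10.6 RPM per kb (SD, n = 2), of which the latter pair overlapped.

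IL-3 was not part of the choice of genes, so its effect within the reaggregates was tested. No gene was called, 0 of 16933 (0%), by limma, and 68 had an unadjusted p below 0.05, none of them among the 6. With consecutive reaggregates as a block limma again called 0, and 564 genes had an unadjusted p below 0.05, of which 1, *Ptger4*, was among the 6. *Ptger4* was higher with IL-3 in 3 of 3 consecutive pairs, at 26.4 against 21.3, 24.1 against 19.9 and 27.7 against 25.4 RPM. The means were 26.1 ± 1.82 RPM with IL-3 and 22.2 ± 2.86 RPM without it (SD, n = 3 each), a log2 difference of 0.23 with an SE of 0.15 and a limma adjusted p = 1. With the block the SE was 0.08 and the limma adjusted p = 0.982. *Ptgs2* showed no common direction, with log2 differences of -0.39, 0.13 and -0.05 in the 3 pairs. *Ptgs1*, *Ptges*, *Slco2a1* and *Ptger1* had log2 differences of 0.06, -0.01, -0.25 and -0.09, and the limma adjusted p was 1 for each. A p above the threshold does not show that the levels were equal.

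Other genes of the pathway were listed by role and fitted in the contrast of reaggregates with flat cultures, with p-values adjusted over all genes. All lists of genes were chosen with earlier results of these data known. Their counts and p-values in this contrast are therefore a description. Of 53 other pathway genes in the table, in 5 lists that include the leukotriene branch, 35 exceeded the minimum. Limma called 2 of them up and 1 down, beside 7.32% and 6.53% of all genes. The gene called down, *Ltc4s*, exceeded the minimum only in flat cultures, so its call is not used. The median log2 fold change of the 35 was 0.03, beside 0.04 over all genes tested. Without flat culture 3 the counts were 4 up and 2 down, 2 were down without reaggregate 2 or 6, and 0 were down without flat culture 4.

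The 2 genes that rose were a receptor and a protein that binds it. *Ptgfr*, the receptor of prostaglandin F2α, had between 14.3 and 51.1 RPM in reaggregates with a median of 40.3, while flat cultures 1 and 3 had 5.64 and 9.58 RPM and flat cultures 2 and 4 had 1.79 and 0.85 RPM. All reaggregates were above all flat cultures, and the de Bruijn cultures were lowest. The log2 fold change was 3.13 with an SE of 0.56 and a limma adjusted p = 0.00264. The change was called in 24 of 25 alternatives, with adjusted p between 0.000129 and 0.0527. It missed the threshold, at 0.0527, in a fit restricted to the IL-3 arm of the reaggregates.

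*Ptgfrn*, a membrane protein that binds to and inhibits that receptor, had between 243 and 274 RPM in reaggregates with a median of 252.5. It had 74.5 and 135 RPM in flat cultures 1 and 3 and 108 and 59.0 RPM in flat cultures 2 and 4, again without overlap. Its log2 fold change was 1.51 with an SE of 0.20 and a limma adjusted p = 0.000569, and it was called in 25 of 25 alternatives. The receptor and its inhibitor therefore rose together. The list of other receptors, which includes *Ptgfrn*, held 5 genes that could be tested. Of them 2 were called up and 0 down, beside 7.32% and 6.53% of all genes. Their median log2 fold change was 0.56. That median is the value of *Ptgdr2*, which exceeded the minimum only in reaggregate 5, at 0.548 RPM, so no direction is read from it. *Ptgir*, the prostacyclin receptor, was between 1.85 and 3.93 RPM in reaggregates and between 2.27 and 7.07 RPM in flat cultures, and was named after its values were seen.

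The gene called down was *Ltc4s*, which makes leukotriene C4. It exceeded the minimum only in flat cultures, so its call between culture forms is not used. It was between 0 and 0.348 RPM in reaggregates, at 0.725 and 0.687 RPM in flat cultures 1 and 3, and at 53.8 and 50.8 RPM in the de Bruijn cultures. As with *Slco2a1*, the de Bruijn cultures stood far above both other groups, and some adipocyte and smooth muscle markers moved with it as given above, without a test of their part in it. The log2 fold change was -3.62, and no test of it is given. The unused call was also lost in 7 of 25 alternatives. Those were consecutive reaggregates averaged, either IL-3 arm alone, no filter, flat cultures 1 and 3 alone, and leaving out flat culture 2 or flat culture 4. Against flat cultures 1 and 3 alone the log2 fold change was -0.90, less than 2-fold.

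**Figure D2:**
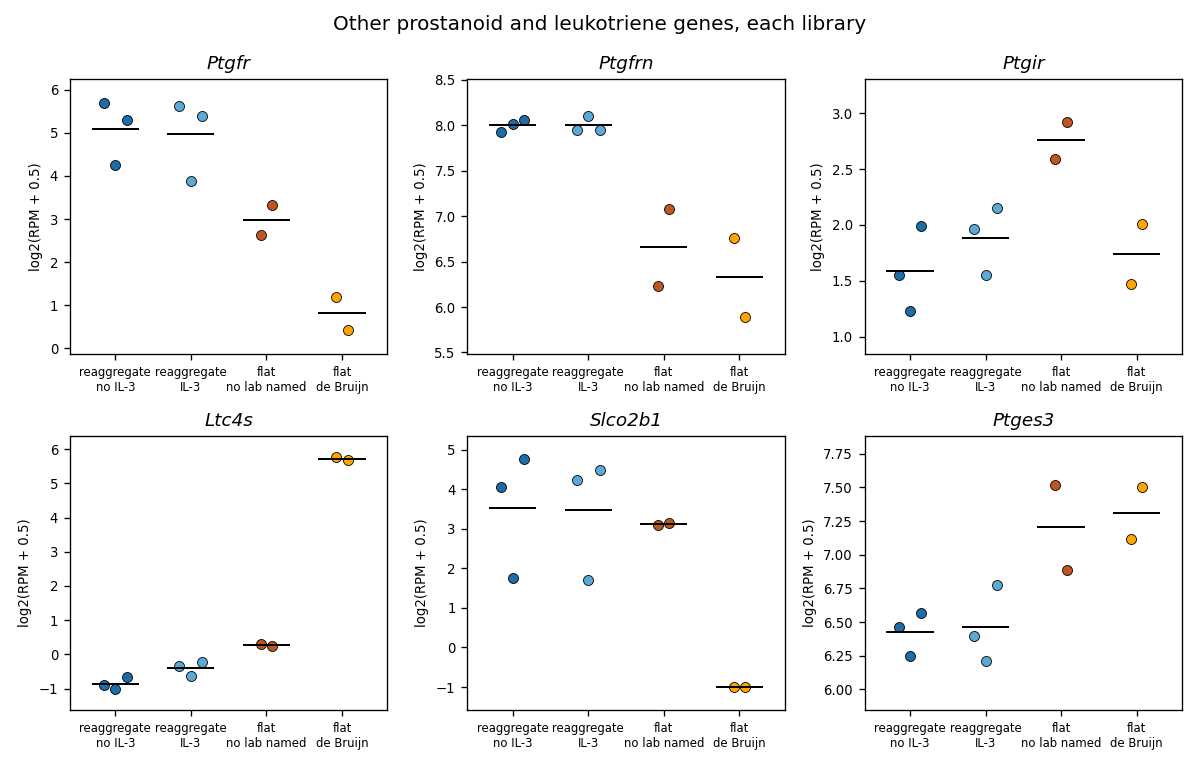
Points give log2(RPM + 0.5) in each library for *Ptgfr*, *Ptgfrn*, *Ptgir*, *Ltc4s*, *Slco2b1* and *Ptges3*, by culture and IL-3 or cell source, with a bar at the group mean and a separate vertical range for each gene. *Ptgfr* and *Ptgfrn* are higher in all reaggregates than in all flat cultures, and of these 6 the de Bruijn cultures differ most from the other flat cultures for *Ltc4s*, at 53.8 and 50.8 RPM, and *Slco2b1*, at 0.

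No gene of the phospholipase, synthase, and transport and inactivation lists was called up or down. Among 10 other phospholipases A2 tested, the most abundant in RPM was *Pla2g4a*, the cytosolic enzyme that releases arachidonic acid, with a mean of 76.2 RPM over all libraries, and its log2 change was -0.02 (SE 0.25, limma adjusted p = 0.963). Their median log2 fold change was 0.06. Among 8 other synthases with a median of -0.07, *Ptges3*, the cytosolic prostaglandin E synthase that is also the cochaperone p23, was between 73.5 and 109 RPM in reaggregates and between 118 and 183 RPM in flat cultures. Its groups did not overlap, and the log2 fold change of -0.81 had an SE of 0.17 and a limma adjusted p = 0.00536 but was under 2-fold. The limma adjusted p of *Ptges3* was 0.0738 with consecutive reaggregates averaged. It was 0.0918 with the IL-3 arm alone and 0.0641 with the arm without IL-3 alone. Named after their values were seen, *Akr1b3*, a prostaglandin F synthase, had a log2 change of -0.97 (limma adjusted p = 0.00346), and *Ptgds*, the prostaglandin D synthase, was between 0.218 and 0.641 RPM in reaggregates and at 0 in all flat cultures. It exceeded the minimum only in reaggregate 1, so no test of it is given. Among 6 other genes of transport and inactivation with a median of -0.05, *Ptgr1*, a prostaglandin reductase, had a log2 change of -0.84 (SE 0.23, limma adjusted p = 0.0206), also under 2-fold. It passed 2-fold, at -1.19 and -1.01, against flat cultures 1 and 3 alone and without flat culture 2. Over its alternatives the adjusted p was between 0.00988 and 0.137, and it was above 0.05 with consecutive reaggregates averaged (0.132), with either IL-3 arm alone (0.132 and 0.137) and against de Bruijn cultures alone (0.0805). In the leukotriene list of 6 genes tested, which includes *Ltc4s*, *Lta4h*, which makes leukotriene B4, was the most abundant in RPM, with a log2 change of 0.31 (SE 0.12, limma adjusted p = 0.0770).

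Between the flat sources, limma called 965 of 16933 genes, 309 higher and 656 lower in de Bruijn cultures, and 3 of the 35 other prostanoid and leukotriene genes. *Ltc4s* was higher in de Bruijn cultures, by a log2 change of 5.45 (SE 0.34, limma adjusted p = 0.00490). *Slco2b1*, an organic anion transporter that accepts prostaglandins, was at 0 in both de Bruijn cultures, at 8.04 and 8.29 RPM in flat cultures 1 and 3, and between 2.78 and 26.8 RPM in reaggregates (limma adjusted p = 0.00581). *Alox5ap*, the partner protein of 5-lipoxygenase, was at 0 and 0.364 RPM in flat cultures 2 and 4, at 20.2 and 10.5 RPM in flat cultures 1 and 3 and between 3.26 and 13.6 RPM in reaggregates (limma adjusted p = 0.0120). Both genes were thus present in reaggregates and in flat cultures of no named lab, in contrast to the de Bruijn cultures, and both were named after their values were seen. Each of these comparisons rests on 2 libraries against 2, and without any single flat culture limma called 0 of 16933 genes.

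Genes that respond to cyclic AMP, the signal raised by the receptors of *Ptger2* and *Ptger4*, were examined as a list of 14, of which 13 were tested. In reaggregates 8 were called up and 0 down, beside 7.32% and 6.53% of all genes, with a median log2 fold change of 1.47. This and later counts of the list include *Nr4a3*, which exceeded the minimum only in reaggregates, so its call is not used. The counts are therefore not set against those shares. *Nr4a3*, a nuclear receptor gene induced rapidly by many stimuli, had between 22.4 and 60.4 RPM in reaggregates and between 0 and 0.486 RPM in flat cultures. The log2 fold change was 5.28, and no test of it is given. *Nr4a1* was between 371 and 695 RPM in reaggregates and between 10.9 and 166 RPM in flat cultures (log2 fold change 3.98, SE 0.60, limma adjusted p = 0.00110). *Nr4a2* rose by a log2 change of 2.37 (SE 0.32, limma adjusted p = 0.000595), and *Fos* by 2.53 (SE 0.72, limma adjusted p = 0.0232). The call of *Fos*, which had 436 RPM in flat culture 3, was lost in 7 of 25 alternatives, with adjusted p between 0.000174 and 0.169, among them those without flat culture 1 (0.0666) and without flat culture 4 (0.0831). The called genes were *Fos*, *Nr4a1*, *Nr4a2*, *Nr4a3*, *Per1*, *Ppargc1a*, *Rgs2* and *Sik1*. The tested genes not called were *Crem*, *Dusp1*, *Junb*, *Pde4b* and *Pde4d*. Their log2 fold changes were -0.30, -0.52, 0.91, -0.0007 and 0.60, so the list did not move as a whole. For *Rgs2* the log2 fold change was 0.23 against flat cultures 1 and 3 and 2.61 against the de Bruijn cultures. These genes answer to many signals besides prostaglandins.

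Immediate early and stress genes were listed as well, and *Fos*, *Junb* and *Dusp1* stand in both lists. Of 15 tested, 8 were called up, 0 were called down and 7 were not called, beside 7.32% up and 6.53% down of all genes, with a median log2 fold change of 1.54. *Fosb*, *Atf3* and *Egr3* had log2 fold changes of 4.19, 4.08 and 3.36, with limma adjusted p of 0.00729, 0.00124 and 0.000138. *Fosb* was not called in 4 of 25 alternatives, with adjusted p between 8.97e-06 and 0.0976, which were averaged consecutive pairs, either IL-3 arm alone and flat cultures 1 and 3 alone. *Egr1*, the most abundant in RPM, reached 1030 RPM in flat culture 3, above all reaggregates, and was not called (log2 fold change 0.90, SE 0.44, limma adjusted p = 0.140). It was called in 2 of 25 alternatives, at a log2 fold change of 1.48 without flat culture 3 and of 1.17 against de Bruijn cultures alone, with adjusted p between 0.00150 and 0.495 over all of them. The summed level of the list was between 2335 and 2900 RPM in reaggregates, 748 and 3233 RPM in flat cultures 1 and 3, and 1079 and 1149 RPM in flat cultures 2 and 4, with *Egr1* the most abundant. *Ptgs2*, itself an immediate early gene, was highest in the same flat culture 3 but was not raised in reaggregates 1 to 4. The part of dissociation or stress in these levels was not tested. Flat cultures 1 and 3 alone left 5 of the cyclic AMP list and 2 of the immediate early list called up. The same counts were obtained with consecutive reaggregates averaged, and they were 9 and 10 without flat culture 3. These settings were added after the values were seen.

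Of 9 inflammatory genes that are often induced together with *Ptgs2*, 0 were called up and 1 was called down by limma, beside 7.32% and 6.53% of all genes. The median log2 fold change of 0.40 is the value of *Il11*, which exceeded the minimum only in reaggregate 2, at 0.545 RPM, so no direction is read from it. *Ccl2*, which encodes a monocyte chemokine, fell from 335 and 277 RPM in flat cultures 1 and 3 and 124 and 138 RPM in flat cultures 2 and 4 to between 13.0 and 79.8 RPM in reaggregates. Its log2 fold change was -2.35 with an SE of 0.55 and a limma adjusted p = 0.00967. It was not called in 4 of 25 alternatives, with adjusted p between 0.00762 and 0.0667. They were the averaged consecutive pairs, either IL-3 arm alone and the de Bruijn cultures alone. *Il1b*, *Tnf*, *Cxcl2* and *Csf2* were at 0 in all 10 libraries. *Il1rn*, the interleukin-1 receptor antagonist and the most abundant of the list in RPM, was between 469 and 918 RPM in reaggregates, at 590 and 1310 RPM in flat cultures 1 and 3 and at 0.596 and 0.364 RPM in flat cultures 2 and 4. Between culture forms it was not called (log2 fold change 4.56, SE 1.88, limma adjusted p = 0.0852), and against flat cultures 1 and 3 alone the log2 fold change was -0.35. It was called in 4 of 25 alternatives, with adjusted p between 3.23e-08 and 0.521, among them those without flat culture 1 (0.0396) and without flat culture 3 (0.0111). Between flat sources it was called, with a log2 fold change of -9.82 (limma adjusted p = 0.00490).

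Likeness of pattern over the 10 libraries was measured by Pearson's r on log2 values among genes with a mean of at least 5 RPM, as a description, since consecutive reaggregates and flat cultures of a source resemble each other. *AC153821.1*, *Ier2* and *Ropn1l* were most like *Ptgs2*, at 0.86 each, and *Ier2* is an immediate early gene. *Vdac2*, *Rnase4* and *AC021631.1* were most like *Ptges*, at 0.99, 0.98 and 0.98.

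Promoter sequences from RefSeq (GRCm38.p6, a later build than that of the expression table) were available for 8 of the 10 genes, not for *Ptgis* and *Ptger1*. Each covers 250 bases before to 50 bases after the start of the gene, and 5 motifs were searched on both strands: the short site of the cyclic AMP response element (TGACG), the E-box (CACGTG), the GC box (GGGCGG), the TATA box (TATAAA) and the AP-1 site (TGANTCA). Of 32851 promoters of 300 bases, these were found in 20.8%, 7.15%, 35.7%, 13.6% and 7.81%. The promoters of both cyclooxygenases are shown because these genes were lower on average in reaggregates, and that of *Slco2a1* because its levels differed most. Capitals mark motif matches. All 3 genes are on the plus strand, and the windows lie at chr2:36230176-36230475, chr1:150099781-150100080 and chr9:103008237-103008536.
Ptgs1: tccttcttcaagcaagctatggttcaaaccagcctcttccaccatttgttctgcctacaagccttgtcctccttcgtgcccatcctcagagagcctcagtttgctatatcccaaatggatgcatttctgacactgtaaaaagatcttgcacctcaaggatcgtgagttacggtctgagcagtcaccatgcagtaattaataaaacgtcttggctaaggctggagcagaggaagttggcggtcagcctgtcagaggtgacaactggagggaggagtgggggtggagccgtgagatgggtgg
Ptgs2: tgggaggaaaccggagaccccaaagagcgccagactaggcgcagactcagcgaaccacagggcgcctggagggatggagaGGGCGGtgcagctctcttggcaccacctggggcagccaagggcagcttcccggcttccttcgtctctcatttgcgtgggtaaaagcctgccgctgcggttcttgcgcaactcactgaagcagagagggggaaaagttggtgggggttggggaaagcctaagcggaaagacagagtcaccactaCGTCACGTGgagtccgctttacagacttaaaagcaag
Slco2a1: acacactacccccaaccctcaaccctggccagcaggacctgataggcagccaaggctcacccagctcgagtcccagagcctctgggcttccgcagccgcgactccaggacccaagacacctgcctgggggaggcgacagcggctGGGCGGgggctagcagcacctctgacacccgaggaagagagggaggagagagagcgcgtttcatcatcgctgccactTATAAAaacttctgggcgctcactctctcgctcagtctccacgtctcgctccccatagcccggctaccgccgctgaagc
The *Ptgs2* window holds a GC box from base -170 to -165. Just after the RefSeq start it holds a short site of the cyclic AMP response element (CGTCA, bases 14 to 18). That match is on the minus strand and overlaps an E-box (bases 17 to 22). Positions count from the RefSeq start, and where transcription starts in these cells was not tested. The *Slco2a1* window holds a GC box and, from base -29 to -24, a TATA box. The *Ptgs1* window holds none of the 5 motifs, and *Ptges* has 2 GC boxes. A match is a description of letters and does not show that a factor binds there.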

How the data were processed

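The authors prepared TruSeq libraries, sequenced 50 base single-end reads, aligned them with TopHat 1.2.0 and Bowtie to NCBI37/mm9, and counted them per Ensembl 58 gene in GeneProf. Reads that mapped to several places were divided among genes. The authors deposited 1 RPM value per gene and library, which is not divided by gene length, and 2 further columns with their own log2 fold change and adjusted p for reaggregates against flat cultures, which were not used. All columns of RPM were used. Between 47.6% and 66.3% of the values up to 10 RPM were whole multiples of 1 read within 0.1 read, so no test on counts was run.

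Columns were assigned to libraries by title, and groups were taken from the labels. Differences were taken on log2(RPM + 0.5) with limma 3.58.1 in R 4.3.3, for genes that exceeded 0.5 RPM in 1 or more of the 10 libraries, with empirical Bayes moderation and a mean-variance trend, without covariates. A rare gene can pass this filter through the group in which it is high. A fold change on this scale understates that of rare genes. Calls needed a 2-fold change and p adjusted by Benjamini-Hochberg over all genes tested no higher than 0.05, and errors of log2 fold changes are SEs. Reaggregates were compared with flat cultures (6 against 4), IL-3 within reaggregates (3 against 3) and cell source within flat cultures (2 against 2). The code was tested on simulated data. Exon lengths, overlaps and coordinates are those of Ensembl release 65 on the same assembly, later than the one used by the authors, and gene names from the table, with older symbols matched. Of 165 listed genes, 7 were not matched and were not analysed here. A result that bears on how far the values of *Ptger1* can be relied on is not reported here. Python 3.11.15 and matplotlib 3.10.9 served for tables and figures.

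Named genes were the 10 prostaglandin genes, up to 4 called genes of each pathway list by size of log2 fold change, the most abundant gene of each list, and the 3 genes most like *Ptgs2* and *Ptges* in pattern. *Ptgir*, *Slco2b1*, *Alox5ap*, *Akr1b3*, *Ptgds*, *Ptgdr2*, *Il11*, single markers and cytokine genes at 0 were named after their values were seen. So were the genes of the cyclic AMP list beyond the 4 taken by the rule, called or not. The genes and lists were chosen with earlier results of these data known. Alternatives covered pseudocount, filter, scaling, replicate structure, cell source, IL-3 arm, model and leaving out each library.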

Additional observations from a re-analysis of the deposited data

Results flagged for a closer look

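Among 44 groups of values of the named genes, 4 held a library far from the rest, where chance gives about 1 in 20. The flags of *Fos*, *Fosb* and *Atf3*, all of the immediate early list, fell on the same library and are not independent. The count is therefore not set against that rate. Flat culture 3 held 436 RPM of *Fos*, where no other flat culture exceeded 79.8 RPM. It also held 284 RPM of *Fosb*, which was no higher than 19.6 RPM elsewhere in flat culture, and 31.5 RPM of *Atf3*, elsewhere no higher than 3.8 RPM. In reaggregate 1, *Nr4a3* was at 60.4 RPM against at most 35.3 RPM in the other reaggregates.

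The effect of reaggregation differed by the flat source used as reference for 2 of the genes that the naming rule took from the lists, which was tested as the difference between the flat sources because the reaggregates are shared. *Ltc4s* differed by a log2 fold change of 5.45 and *Il1rn* by -9.82, de Bruijn cultures minus those of no named lab. *Slco2a1*, chosen with earlier results known and also called between the flat sources, differed by 5.99. *Slco2b1* and *Alox5ap*, named after their values were seen, differed by -4.12 and -4.52.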

How the results depend on the processing

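The log2 differences of the 6 prostaglandin genes kept their sign in 25 of 25 alternatives and moved by more than the spread between libraries only for *Slco2a1*, at -7.96 against de Bruijn and -1.97 against the other flat cultures alone. Counts below are genes up, genes down, prostaglandin genes called (2 in the chosen setting), other pathway genes up (2) and other pathway genes down (1). With consecutive reaggregates averaged they were 321 up, 429 down, 0 called and 0 other pathway genes down. Against de Bruijn cultures alone they were 2579 up, 1775 down, 1 called, 7 up and 2 down, and against the other flat cultures alone 627 up, 1 called and 3 down. With IL-3 reaggregates alone they were 277, 360, 0, 1 and 0, and without them 345 up, 474 down and 0 called. Without the filter 1 was called, 0 other pathway genes were down, and cell source called 204 genes. A pseudocount of 0.1 gave 4 other pathway genes up, and quantile normalization gave 2 down. Leaving out single libraries gave between 766 (without flat culture 4) and 2121 up (without flat culture 3), between 815 and 1522 down, between 1 and 2 called (1 without reaggregate 1, 2, 3 or 4 or flat culture 1 or 3), between 2 and 4 other pathway genes up (4 without flat culture 3), between 0 and 2 down, and 0 genes by source without any flat culture. With a 1-library arm, that library is assumed to vary like the rest. The cause was not tested, though fewer libraries entered most of these fits. Library numbers used as a replicate block gave 1885 genes up. Deviations of same-numbered libraries correlated at -0.04, -0.21, 0.07 and 0.16, and these libraries share only a number, with which not every library correlated best. IL-3 called 0 genes in every setting run. Depth limits *Ptgis*, *Hpgd*, *Ptger2* and *Ptger3*, which lie near or below 3 reads.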
